A study of Homo sapiens with 5 samples.

Results

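The loci of 8 genes for subunits of the SWI/SNF chromatin remodelling complex were examined in MOLT-4 cells, an established human leukaemia line of the T lineage. The genes were SMARCA4, SMARCA2, ARID1A, ARID1B, ARID2, SMARCB1, SMARCC1 and PBRM1. Each was given a fixed window in hg19 that spans the gene and some flank, and every peak sharing at least 1 bp with the window was taken. The window rule itself uses no measured value, though the genes were picked with earlier results of these data known. The 8 windows add up to 1.53 Mb and held 57 of the 51455 deposited peaks, namely 20 of 13199 for H3K4me3, 37 of 36777 for RUNX1 and 0 of 1479 for SMA4. Chromatin was profiled by CUT&RUN, in which an antibody brings a nuclease to its target and the DNA cut loose is sequenced. Every library came from this line, for which the labels name no treatment, and the libraries differed in antibody. There was 1 library for trimethylated lysine 4 of histone H3 (H3K4me3), which marks promoters in use or ready for use. The transcription factor RUNX1, a master regulator of blood formation, had 1 library, as did a target labelled SMA4, which the labels do not spell out. The 2 IgG control samples were not used here. With 1 library per antibody nothing has a replicate, no test was made, and all differences given are between peak lists of single libraries. The lists give no read counts, so the depth behind a peak is unknown.

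SWI/SNF complexes use the energy of ATP to slide or evict nucleosomes and so open promoters and enhancers. Each complex holds 1 ATPase, SMARCA4 (BRG1) or SMARCA2 (BRM). In the canonical BAF and PBAF forms the core includes SMARCC1 and SMARCB1. ARID1A or ARID1B marks the canonical BAF form, and ARID2 with PBRM1 marks the PBAF form. In the thymus these complexes take part in T cell development, as does RUNX1. Several of these subunit genes are tumour suppressors.

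RefSeq promoter sequences were at hand for 6 of the 8 genes, as 12 entries in GRCh38.p14, each of 300 bases around an annotated start. The stretches of 250 bases before the start are shown for 4 genes, because their widest H3K4me3 peaks differ in width, from 628 bp at SMARCA2 through 1395 bp at SMARCB1 and 1473 bp at SMARCA4 to 3903 bp at ARID1A. For genes with several entries the stretch shown is that of the entry listed first. Capitals mark CG dinucleotides, the sites that CpG island promoters are rich in. The builds differ, so no peak was placed on these sequences.
SMARCA4 (chr19:10960780-10961029, plus strand): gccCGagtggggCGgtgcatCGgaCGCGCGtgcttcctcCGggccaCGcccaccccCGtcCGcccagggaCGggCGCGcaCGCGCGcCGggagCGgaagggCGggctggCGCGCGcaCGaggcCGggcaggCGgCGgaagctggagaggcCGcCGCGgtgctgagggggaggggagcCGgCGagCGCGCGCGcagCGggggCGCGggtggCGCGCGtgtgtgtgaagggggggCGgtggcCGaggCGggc
SMARCA2 (chr9:2015097-2015346, plus strand): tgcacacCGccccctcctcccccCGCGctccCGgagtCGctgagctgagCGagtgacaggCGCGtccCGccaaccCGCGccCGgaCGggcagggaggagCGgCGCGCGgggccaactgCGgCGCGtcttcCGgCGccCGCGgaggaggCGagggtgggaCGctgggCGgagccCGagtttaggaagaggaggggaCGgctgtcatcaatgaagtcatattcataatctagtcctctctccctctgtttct
ARID1A (chr1:26695765-26696014, plus strand): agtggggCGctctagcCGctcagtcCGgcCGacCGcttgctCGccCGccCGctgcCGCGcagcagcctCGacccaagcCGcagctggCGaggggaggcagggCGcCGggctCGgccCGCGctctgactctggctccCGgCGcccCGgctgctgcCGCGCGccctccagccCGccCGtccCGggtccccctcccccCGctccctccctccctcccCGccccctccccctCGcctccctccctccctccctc
SMARCB1 (chr22:23786716-23786965, plus strand): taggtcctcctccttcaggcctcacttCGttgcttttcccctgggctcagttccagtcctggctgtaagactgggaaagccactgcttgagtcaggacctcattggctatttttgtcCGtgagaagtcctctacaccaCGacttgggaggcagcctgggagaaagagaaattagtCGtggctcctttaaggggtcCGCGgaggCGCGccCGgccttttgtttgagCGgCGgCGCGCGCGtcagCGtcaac
The SMARCA4 stretch holds 44 CG dinucleotides, the SMARCA2 stretch 29, the ARID1A stretch 30 and the SMARCB1 stretch 16. Over the 300 bases, the ratio of observed to expected CG was 1.17 for SMARCA4, 0.90 for SMARCA2, 0.79 for ARID1A and 0.88 for SMARCB1, against a median of 0.58 over 35116 RefSeq promoters. Other entries of the same genes were poorer in CG, at 0.21 for the second of SMARCA4 and at 0.25, 0.23 and 0.65 for the others of SMARCA2. Of the 12 entries, 8 reached a ratio of 0.6, as did 48.9% of all promoters. The RUNX motif TGTGGT was searched for on both strands and had no match in the 12 entries. It was found in 13.1% of all promoters, and its longer form TGTGGTT, which contains it, in 4.27%. The longer form could therefore have no match in the 12 either. This says only that these letters are not in these stretches, and nothing about RUNX1 itself.

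All 8 windows held both H3K4me3 and RUNX1 peaks, and none held an SMA4 peak. The windows carried 13.1 H3K4me3 peaks per Mb against 4.35 over chromosomes 1 to 22 and X, and 24.2 RUNX1 peaks per Mb against 12.1. Windows drawn around genes hold promoters by construction, so these densities do not set the subunit genes apart from other genes. A closer comparison cut the same chromosomes into tiles of each window's own length and kept the tiles with at least 1 H3K4me3 peak. For ARID1A, with 8 RUNX1 peaks in 100 kb, 7.93% of 7187 such tiles held as many. For SMARCA2, with 7 in 200 kb, the share was 28.8%, and for SMARCA4, with 4 in 120 kb, it was 40.5%. For ARID1B (7 in 460 kb) it was 57.1%, for ARID2 (4 in 210 kb) 58%, for SMARCB1 (2 in 60 kb) 61.4%, for SMARCC1 (3 in 220 kb) 71.9% and for PBRM1 (2 in 160 kb) 80.5%. The number of RUNX1 peaks was thus in the ordinary range of marked tiles for 7 of the genes. The median marked tile held from 2 RUNX1 peaks (60 kb) to 8 (460 kb), so holding both H3K4me3 and RUNX1 was the usual outcome. The share was lowest for ARID1A, but it is the lowest picked from 8, and no test was made. Neighbouring RUNX1 peaks of ARID1A were as little as 134 bp apart, so its count depends on how peaks were split. As many H3K4me3 peaks as in the window were held by 23.1% of tiles for SMARCA4 (3 peaks), 28.6% for PBRM1 (3), 34.2% for SMARCA2 (3), 39.1% for ARID1B (4), 45.1% for ARID1A (2), 60.7% for SMARCC1 (2), 60.9% for ARID2 (2) and 100% for SMARCB1 (1). The 100% for SMARCB1 was fixed in advance, since only tiles with at least 1 H3K4me3 peak were kept. None of the other counts stood out.

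**Figure D1:**
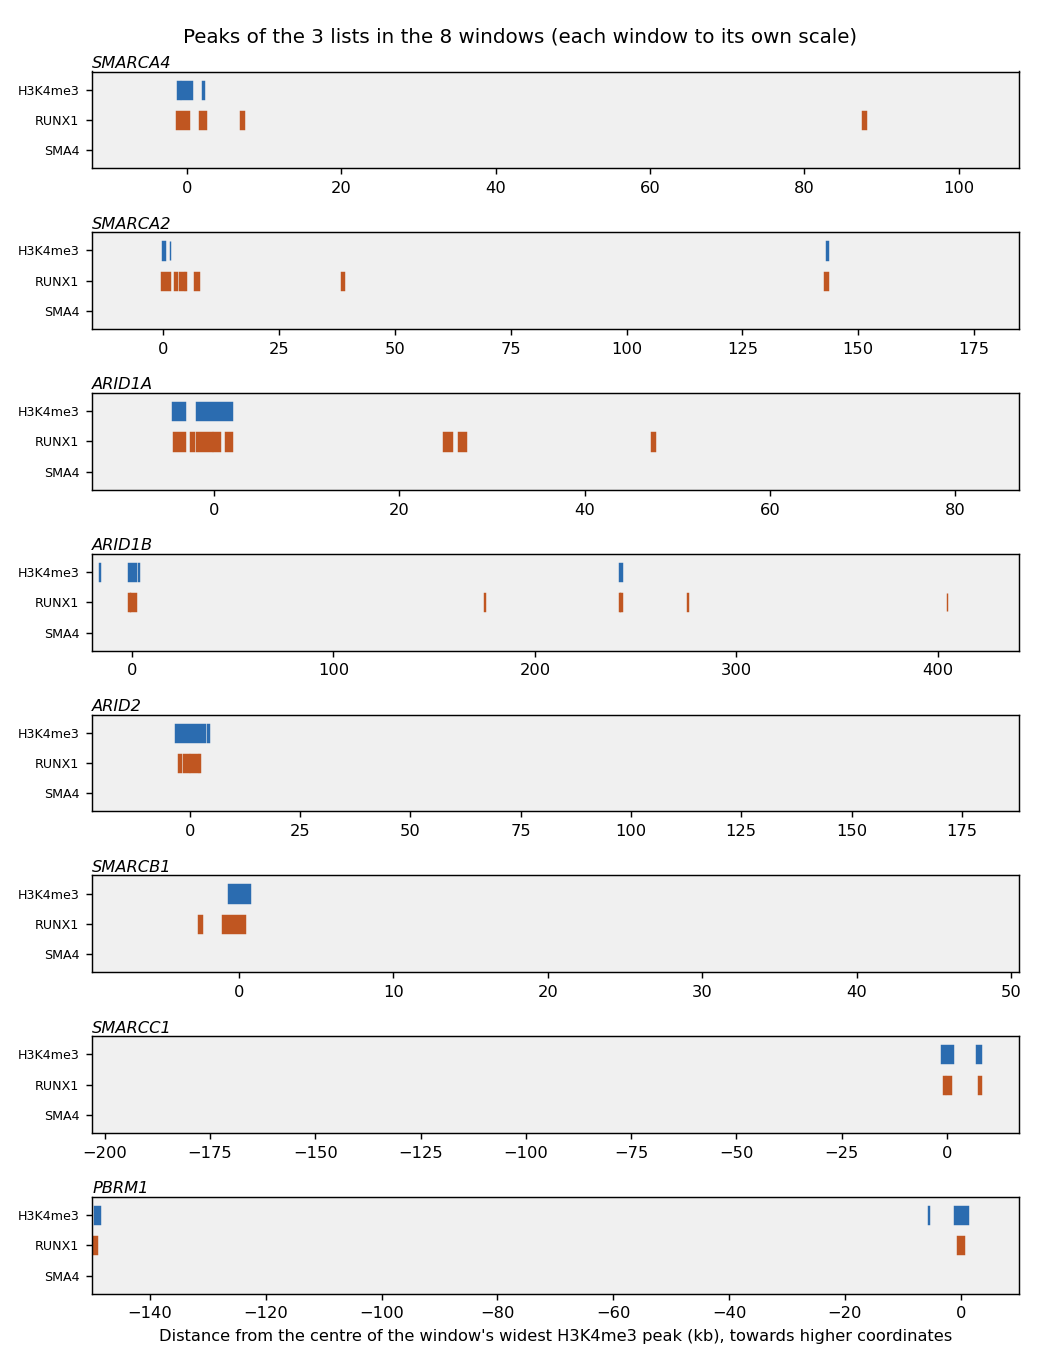
Peaks of the H3K4me3, RUNX1 and SMA4 lists in the 8 windows, drawn against distance in kb from the centre of the widest H3K4me3 peak, with each window on its own scale and peak outlines thickened so that narrow peaks can be seen. The widest H3K4me3 peak lies near 1 end of each window, further H3K4me3 peaks lie 143, 149 and 243 kb from it at SMARCA2, PBRM1 and ARID1B, and the SMA4 rows hold none.

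The widest H3K4me3 peak lay towards 1 end of each window. Its centre was within the lowest 20% of the window for 6 genes (4.30% to 15.8%) and at 92.3% and 93.7% for SMARCC1 and PBRM1. These are the ends from which the genes are transcribed, since SMARCC1 and PBRM1 run towards lower coordinates and the others towards higher ones. The windows carry only a short flank there, which fixes roughly where a start can lie.

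At both ATPase genes the leading H3K4me3 peak lay under a RUNX1 peak wider than itself, by little at SMARCA4 (1601 against 1473 bp) and by much at SMARCA2 (2092 against 628 bp). In the SMARCA4 window (chromosome 19, 11.06 to 11.18 Mb) the 3 H3K4me3 peaks spanned 461, 1473 and 187 bp, and the widest ran from 11071521 to 11072993. A gap of 127 bp separated it from the peak of 461 bp. A RUNX1 peak of 1601 bp, from 11070889 to 11072489, lay over both and covered 65.8% of the widest. A second RUNX1 peak of 836 bp covered the whole H3K4me3 peak of 187 bp. The remaining RUNX1 peaks, of 587 and 617 bp, lay 7.16 and 87.7 kb from the centre of the widest mark, on the side of the gene body. The widest SMARCA4 mark was of ordinary width, since 43.6% of tiles of 120 kb held one at least as wide, and 30.3% held a RUNX1 peak at least as wide as its RUNX1 peak.

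SMARCA2, which encodes the alternative ATPase, had the narrowest leading H3K4me3 peak of the 8 genes and, after ARID1B, the widest RUNX1 peak. Its window (chromosome 9, 2.0 to 2.2 Mb) held H3K4me3 peaks of 628, 179 and 547 bp. The leading one, from 2015067 to 2015694, lay entirely inside a RUNX1 peak of 2092 bp from 2014804 to 2016895, which was 3.33 times as wide. In the H3K4me3 list 37.7% of peaks were narrower than 628 bp, whereas in the RUNX1 list 96.7% were narrower than 2092 bp. Tiles of 200 kb held an H3K4me3 peak at least as wide in 83.6% of cases and a RUNX1 peak at least as wide in 16.6%. Another 4 RUNX1 peaks, of 637, 1014, 221 and 1068 bp, followed within 8 kb on the side of the gene body and had no H3K4me3. The peak of 221 bp is at the minimum width of the RUNX1 list. Deep in the gene, 143 kb from the leading peak, an H3K4me3 peak of 547 bp shared 480 bp with a RUNX1 peak of 846 bp. RefSeq lists 4 promoter entries for SMARCA2, so the gene has annotated starts besides the leading one, but whether this distant pair lies on one of them was not tested. At the widest H3K4me3 peak the ratio of RUNX1 width to mark width exceeded 1 at SMARCA2, SMARCA4 (1.09) and SMARCB1 (1.08), that is at 3 of 8 genes. Over all H3K4me3 peaks on RUNX1 the overlapping RUNX1 peak was the wider in 51%.

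**Figure D2:**
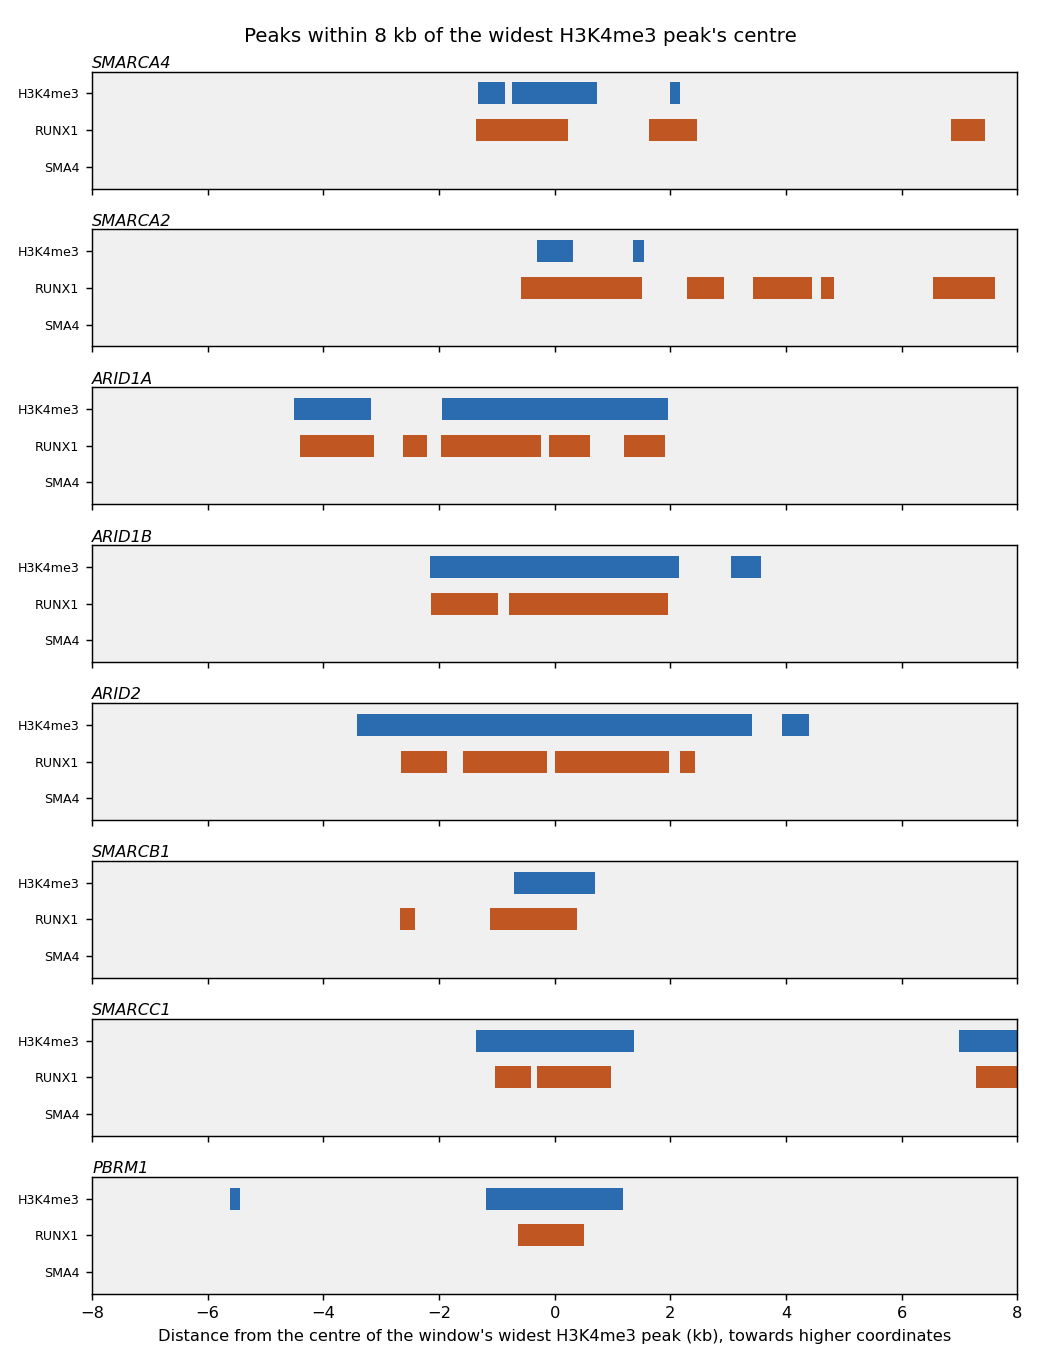
Peaks within 8 kb of the centre of each window's widest H3K4me3 peak, with distance in kb on the horizontal axis and 1 row per list. At ARID1A, ARID1B, ARID2 and SMARCC1 several RUNX1 peaks lie inside 1 H3K4me3 peak, whereas at SMARCA2 the RUNX1 peak of 2092 bp extends beyond the mark of 628 bp.

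The 3 ARID genes, whose products carry an AT-rich interaction domain and set the form of the complex, had the widest H3K4me3 peaks of the 8. These spanned 6840 bp at ARID2, 4306 bp at ARID1B and 3903 bp at ARID1A, and they ranked 5, 51 and 77 among 13181 peaks. The other 5 genes had widest peaks of 628 to 2731 bp. Only 2.17% of the list reached 3000 bp, as all 3 ARID peaks did. Since the widest peak of a window was taken each time, a closer comparison is with the widest peak of each tile. Tiles needed only 1 H3K4me3 peak of any width, whereas the windows were placed on genes, so the comparison can still favour the windows. A peak at least as wide was found in 0.0955% of 5235 tiles for ARID2, 1.57% of 3441 for ARID1B and 1.1% of 7187 for ARID1A. For the other genes the share was 8.22% (SMARCC1), 13.1% (PBRM1), 43% (SMARCB1), 43.6% (SMARCA4) and 83.6% (SMARCA2). For the widest RUNX1 peak the order of the genes was another. As wide a RUNX1 peak was found in 9.15% of tiles for ARID1B, 16.6% for SMARCA2, 20.8% for ARID2, 22.7% for ARID1A, 28.9% for SMARCB1, 30.3% for SMARCA4, 56.7% for SMARCC1 and 62.1% for PBRM1. The genes were chosen with earlier results of these data known, so the standing of the ARID genes is a description.

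In the ARID1A window (chromosome 1, 27.01 to 27.11 Mb) the wide mark ran from 27021195 to 27025097. It held 3 RUNX1 peaks of 1739, 716 and 694 bp, with gaps of 134 and 590 bp between them, which together covered 80.1% of it. An H3K4me3 peak of 1345 bp lay 1.22 kb away towards lower coordinates, with a RUNX1 peak of 1285 bp over 91.8% of it. Between the 2 marks sat a RUNX1 peak of 422 bp without H3K4me3. Inside the gene, RUNX1 peaks of 907 and 942 bp lay side by side 22.8 and 24.3 kb from the mark, and a peak of 468 bp lay 47.4 kb from the mark's centre. ARID1A thus had RUNX1 peaks both at its marked end and in the gene body.

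ARID1B, the paralogue that can take the place of ARID1A, had a similar leading end and a second marked site far inside the gene. In its window (chromosome 6, 157.08 to 157.54 Mb) the wide mark from 157097649 to 157101954 held RUNX1 peaks of 1155 and 2736 bp, both entirely inside it and 201 bp apart. They covered 90.4% of the mark. The peak of 2736 bp ranked 429 in the RUNX1 list and was the widest RUNX1 peak in the 8 windows. At 243 kb from the centre of this mark, an H3K4me3 peak of 1449 bp, from 157341812 to 157343260, shared 88.2% of its width with RUNX1 peaks of 394 and 1088 bp. H3K4me3 peaks of 179 and 513 bp had no RUNX1, and RUNX1 peaks of 511, 555 and 268 bp had no H3K4me3. Of these RUNX1 peaks the nearest to a mark was 32.3 kb away and the farthest 161 kb.

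The PBAF genes ARID2 and PBRM1 differed in the width of the mark and in how much of it RUNX1 covered. In the ARID2 window (chromosome 12, 46.10 to 46.31 Mb) the mark from 46118703 to 46125542 held all 4 RUNX1 peaks of the window, of 798, 1451, 1974 and 266 bp. The gaps between them were 285, 126 and 192 bp, and they covered 65.6% of the mark. A further H3K4me3 peak of 460 bp, 516 bp away, had no RUNX1. The rest of the window, which includes the gene body, held no peak of any list. PBRM1 encodes the polybromo subunit, which binds acetylated histones. Its widest mark (chromosome 3, 52718814 to 52721177, 2364 bp) held 1 RUNX1 peak of 1151 bp near its centre, which covered 48.7%, the lowest share among the 8 genes. In the gene order of RefSeq, GNL3 is the neighbour on this side, and the peak was not assigned to either gene. An H3K4me3 peak of 179 bp, the list minimum, lay 4.26 kb away without RUNX1. The third H3K4me3 peak of the window, of 1096 bp, lay at its other end 149 kb away and shared 591 bp with a RUNX1 peak of 839 bp. On that side RefSeq order places UQCC5, so this pair need not belong to PBRM1.

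The core subunit genes SMARCB1 and SMARCC1 had 2 and 3 RUNX1 peaks in their windows, counts that many marked tiles of their lengths reached (61.4% and 71.9%). The windows differ in length. Per 100 kb SMARCB1 had 3.33 RUNX1 peaks, as did SMARCA4, against 1.36 for SMARCC1 and 1.52 for ARID1B. The SMARCB1 counts also depended on the extent of its window. Widened by 20 kb at each end, it held 4 H3K4me3 and 8 RUNX1 peaks. SMARCB1 had the smallest window (60 kb, chromosome 22, 24.12 to 24.18 Mb) and a single H3K4me3 peak of 1395 bp from 24128810 to 24130204. A RUNX1 peak of 1513 bp covered 77.7% of it and extended past it towards lower coordinates. A RUNX1 peak of 256 bp lay 1.72 kb from the mark on the same side, where MMP11 is the neighbouring gene. SMARCC1, which encodes a scaffold of the core, had a mark of 2731 bp on chromosome 3 from 47821612 to 47824342. RUNX1 peaks of 633 and 1277 bp, 102 bp apart, lay wholly inside it and covered 69.9%. A second H3K4me3 peak of 1018 bp lay 5.63 kb beyond, away from the gene body, and shared 71.6% of its width with a RUNX1 peak of 801 bp. SMARCC1 had no peak in the remaining stretch of its window (chromosome 3, 47.62 to 47.84 Mb).

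**Figure D3:**
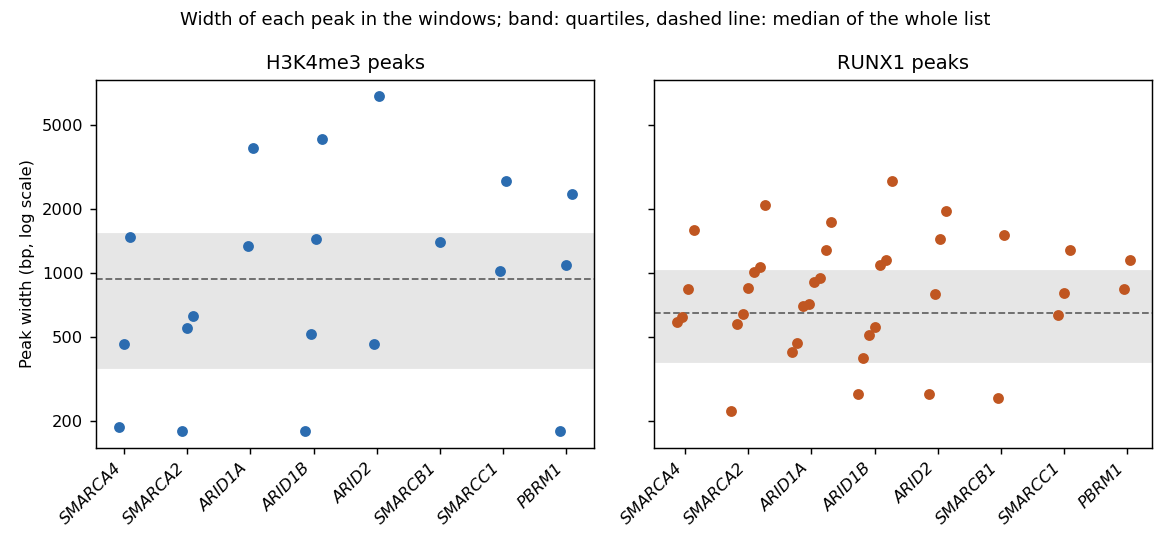
Width in bp on a log axis of every H3K4me3 peak (left) and RUNX1 peak (right) in the 8 windows, 1 point per peak, with the quartiles of the whole list as a band and its median as a dashed line. The H3K4me3 points of ARID1A, ARID1B and ARID2 reach 3903, 4306 and 6840 bp, far above the upper quartile of 1524 bp, and the RUNX1 points stay at or below 2736 bp.

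Taking all members, 11 of the 20 H3K4me3 peaks were wider than the list median of 938 bp and 23 of the 37 RUNX1 peaks were wider than theirs of 645 bp. The median widths in the windows were 1057 and 836 bp. Of the 20 H3K4me3 peaks, 16 overlapped RUNX1 (80%, 95% Wilson interval 58.4 to 91.9%), against 88.1% of the whole list. The 4 without RUNX1 were the narrow ones named above, at ARID1B (179 and 513 bp), ARID2 (460 bp) and PBRM1 (179 bp). The share is near that of the list, so it says nothing particular about the subunit genes. RUNX1 lay on the widest H3K4me3 peak of all 8 genes and covered 48.7% to 100% of it, with a median of 73.8% against 79.0% over all H3K4me3 peaks. These 8 were picked for width, with a median of 2547.5 bp against 938 bp in the list. Over H3K4me3 peaks of at least 3000 bp the median share covered was 72.0%. At 4 genes the widest mark held at least 2 RUNX1 peaks, as did 8.06% of all H3K4me3 peaks, and at 2 it held at least 3, as did 0.986%. Among the 286 H3K4me3 peaks of 3000 bp or more these shares were 60.5% and 22.7%. The 3 ARID marks, all in that width class, held 3 (ARID1A), 2 (ARID1B) and 4 (ARID2) RUNX1 peaks, and 3 marks are too few to set against those shares. When RUNX1 peaks less than 200 bp apart were joined, 3 genes had at least 2 and none had at least 3. ARID1B was among the 3 through a gap of 201 bp, just past the cutoff. The shares over all H3K4me3 peaks were not counted after joining, so these joined counts have no comparison.

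**Figure D4:**
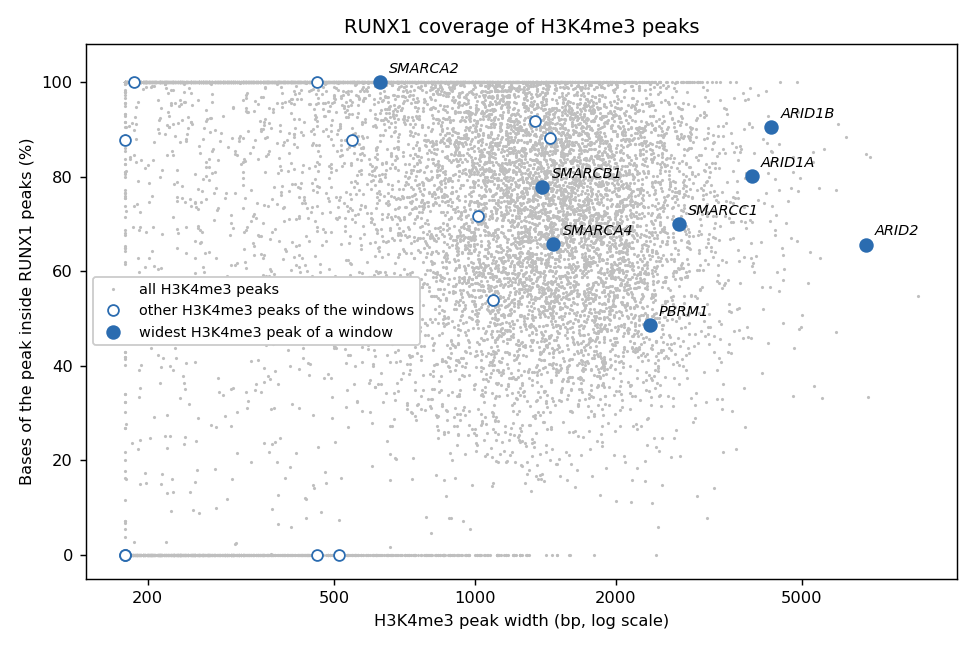
Share of each H3K4me3 peak's bases inside RUNX1 peaks (%) against the peak's width (bp, log axis), with all 13181 peaks in grey, the widest peak of each window as filled and the other 12 as open circles. The widest peaks lie between 48.7% (PBRM1) and 100% (SMARCA2), and the 4 open circles at 0 are the narrow peaks without RUNX1.

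RUNX1 peaks off the mark were found in some of the windows and not in others. Of the 37 RUNX1 peaks, 22 lay on H3K4me3 (59.5%, 95% Wilson interval 43.5 to 73.7%), against 32.2% of the list. A further 6 were off the mark but within 5 kb of it, as were 8.24% of the list, and 9 were farther away (24.3%, interval 13.4 to 40.1%), as were 59.5% of the list. Windows placed on genes favour peaks near promoters, so the difference from the list was not read as a property of these genes. The 15 peaks off the mark came from SMARCA2 (5), ARID1A (4), ARID1B (3), SMARCA4 (2) and SMARCB1 (1). The windows of ARID2, SMARCC1 and PBRM1 had none, so that all of their 9 RUNX1 peaks lay on H3K4me3. These counts are small and depend on how peaks were split. Joining turned the 4 RUNX1 peaks on the ARID2 mark into 2, and the 2 on the widest SMARCC1 mark into 1. How many marked tiles lack a RUNX1 peak off the mark was not counted, so this was not read as a property of these genes. The Wilson intervals cover counting error only, and peaks of 1 window are neighbours and not independent.

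No SMA4 peak fell in any of the windows, SMARCA4 included, and the data do not show whether this differs from other genes. At the density of the list, 0.486 peaks per Mb, the 1.53 Mb would hold 0.744 peaks. A count of 0 allows up to 3 peaks, or 1.96 per Mb. Among marked tiles of the same lengths, the share with an SMA4 peak was 5.6% at 60 kb (SMARCB1), 7.35% at 100 kb (ARID1A), 8.31% at 120 kb (SMARCA4), 9.55% at 160 kb (PBRM1), 11.4% at 200 kb (SMARCA2), 11.9% at 210 kb (ARID2), 12.3% at 220 kb (SMARCC1) and 19.5% at 460 kb (ARID1B). An empty window was therefore the usual outcome for each length. ARID2 came nearest, with an SMA4 peak of 275 bp on chromosome 12 from 46062910 to 46063184. This peak lay on RUNX1 but not on H3K4me3, 55.5 kb from the ARID2 mark and 36.8 kb outside the window. Of all H3K4me3 peaks, 8.66% had an SMA4 peak nearer than that. For the other 7 genes the nearest SMA4 peak was 792 kb (ARID1A) to 4334 kb (SMARCA4) from the mark, against a median of 943 kb over all H3K4me3 peaks. Its folder and the software named for it set the SMA4 list apart from the H3K4me3 and RUNX1 lists, and this cannot be told apart from the antibody.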

How the data were processed

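Of 5 samples, the peak lists of 3 libraries were used. The authors deposited per library the chromosome, start and end of each peak, in hg19 per the submitters' processing notes, which also name MACS2 and SEACR. Per the file headers, H3K4me3 and RUNX1 peaks came from MACS2 in a batch 2 folder, and SMA4 peaks from cutruntools at q under 0.01 in a batch 3 folder. The sources used here do not give the cutoff used for H3K4me3 and RUNX1, the aligner or each library's control.

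Peaks on chromosomes 1 to 22 and X were analysed with Python 3.11.15, NumPy 2.4.6 and SciPy 1.17.1. Overlap meant at least 1 shared bp, coordinates are 1-based, and the overlap functions were tested on simulated peaks. Tiles of each window's length started at the first base of a chromosome and were kept with at least 1 H3K4me3 peak. All 8 genes are named by rule. The genes and windows were chosen with earlier results of these data known. Other SWI/SNF subunit genes were to be counted only with an annotation of hg19, which was not used here, so they were not analysed. For the same reason the line's markers were not checked and no peak was assigned to a gene start. Promoter sequences and gene order come from RefSeq on GRCh38.p14, matched by symbol (6 and 8 of 8 genes), and no coordinate was carried between builds.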

Additional observations from a re-analysis of the deposited data

How the results depend on the processing

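Peaks were also taken by their midpoint, in windows widened by 20 kb at each end, after joining peaks less than 200 bp apart, and without peaks at the minimum width. Overlap was also counted at 50% of the shorter peak or within 1 kb, and the longer motif was used. Across 35 alternative values, 34 stayed within 1.5 times a count or length, or within the interval of a share. These limits are loose for the shares, whose intervals ran from 58.4 to 91.9% and from 43.5 to 73.7%. The widened windows came close to the limit for counts, with 29 H3K4me3 peaks against 20 and 55 RUNX1 peaks against 37. Some of these 34 could not have come out otherwise. The longer motif contains the shorter one, which had no match. Taking midpoints, joining peaks or leaving out the narrowest could not raise an SMA4 count of 0. The exception was chosen after seeing the data: with neighbouring RUNX1 peaks joined, the genes whose widest mark held at least 3 RUNX1 peaks went from 2 to 0, because joining turned the 3 peaks of ARID1A and the 4 of ARID2 into 2 each. The share of H3K4me3 peaks on RUNX1 ranged from 78.9% to 88.2%, and that of RUNX1 peaks on H3K4me3 from 54.8% to 64.9%. Widening added 9 H3K4me3 and 18 RUNX1 peaks and no SMA4 peak. The overlap of SMA4 peaks gave no value, as the windows held none. No paired analysis was possible because each antibody had 1 library. Lists without read counts limit every value to presence and width.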
